A study of Vitis vinifera with 2 samples.

Results

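Part of the 12X grapevine assembly has no place on a chromosome. Contigs that could be tied to no chromosome are joined end to end in the unplaced sequence chrUn, and contigs tied to a chromosome but not placed along it are kept in random sequences such as chr13_random. All siRNA clusters listed on chrUn or on a sequence whose name ends in _random were taken, by sequence name alone. They numbered 8429 of the 89597 clusters of the leaf list and 24686 of the 227847 clusters of the embryogenic callus (EC) list. Of these, chrUn held 5978 in leaf and 15186 in EC, and the 13 random sequences together held 2451 and 9500. Chromosomes 1 to 19, the remainder of the 33 sequences, held 81168 and 203161 and served for comparison.

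The leaf material was young leaf of Vitis vinifera cv. 'Chardonnay', pooled over several leaves, and the callus was proliferating EC of the same cultivar, begun from anthers of the same vines, kept in the dark on solid medium and pooled over several Petri dishes. Small RNA from each was sequenced as 1 library, so no difference between the tissues could be checked in replicates. Anther-derived callus and leaf also differ in organ of origin and in growth conditions, which cannot be told apart from the state of the cells. The lists name no genes, and the tissue labels could not be checked against marker genes.

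A cluster is a stretch of genome to which small RNAs mapped close together, and its DicerCall is the predominant fragment size of its reads, from 20 to 24 nt. Clusters in which too few reads fell in that range have no DicerCall and are written N. In plants, 24 nt het-siRNAs are cut by DCL3 from transcripts of RNA polymerase IV that RDR2 has made double-stranded, and are loaded into AGO4 to guide canonical RNA-directed DNA methylation (RdDM), chiefly at transposable elements. Fragments of 21 and 22 nt are made by other Dicer-like proteins and act in post-transcriptional silencing and in non-canonical RdDM. Unplaced contigs of plant assemblies are often rich in repeats, on which reads map to many places. A position on chrUn is a place in the joined sequence and not on a chromosome, and neighbours across a joint need not be neighbours in the plant.

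The random sequences carried a larger excess of EC clusters than did any chromosome, whereas chrUn did not stand apart in this respect. There were 3.88 clusters in EC for each in leaf on the pooled random sequences (95% interval 3.71 to 4.05). The corresponding ratio was 2.54 (2.47 to 2.62) on chrUn and 2.50 (2.48 to 2.52) on the pooled chromosomes, which ranged singly from 1.69 on chromosome 6 to 3.52 on chromosome 10. The random value lay above all 19 chromosomes, and that of chrUn lay above 9 and below 10 of them. These intervals cover the counting of clusters only, and no test was made, as neighbouring clusters are not independent and each tissue had 1 library. A deeper library gives more clusters on every sequence, so a ratio of 1 has no special meaning and the sequences are compared with each other.

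Taken singly, 11 of the 13 random sequences had a ratio above that of chromosome 10 (3.38 to 3.66). Of these, chr3_random, chr5_random, chr9_random, chr10_random, chr11_random and chr18_random had intervals that overlapped the one of chromosome 10. The random sequences are short, from 0.0729 to 5.17 Mb, and windows of 1 Mb on the chromosomes had an upper quartile of 3.97 and a maximum of 11.25. The highest ratios were 6.54 on chr16_random, with 28 leaf and 183 EC clusters, 5.66 on chr1_random, with 56 and 317, and 5.21 on chr17_random, with 92 and 479. The sequences with most clusters had lower ratios than these. The ratio was 3.55 (3.29 to 3.84) on chr18_random, with 830 leaf and 2947 EC clusters, and 4.10 (3.73 to 4.51) on chr13_random, with 530 and 2172. Between these lay chr12_random at 4.77 (195 and 930 clusters), chr9_random at 4.74 (38 and 180), chr3_random at 4.24 (216 and 916), chr5_random at 3.95 (55 and 217), chr10_random at 3.62 (86 and 311) and chr11_random at 3.56 (32 and 114). Below the chromosomal maximum were chr7_random at 2.55 (278 and 708) and chr4_random at 1.73, which held the fewest clusters, 15 and 26.

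**Figure D1:**
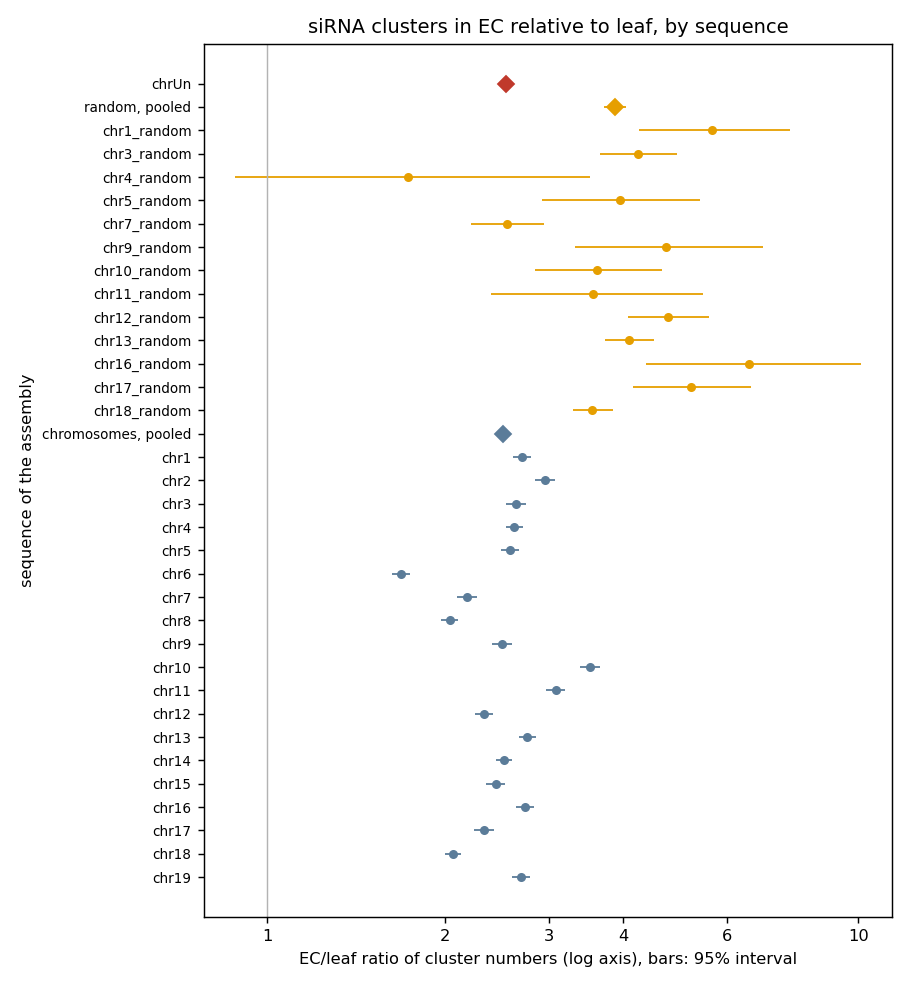
EC/leaf ratio of cluster numbers on a log axis for chrUn (red), the 13 random sequences (orange) and chromosomes 1 to 19 (blue), with diamonds for pooled sets and bars for the 95% interval of counting error. The random sequences pooled stand at 3.88, to the right of every chromosome, while chrUn at 2.54 lies among the chromosomes, and chr4_random and chr7_random are the random sequences that do not exceed 3.52.

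Each random sequence can be set beside the chromosome to which it is assigned. The ratio was higher on the random sequence in 12 of 13 pairs, the exception being chr4_random, and the intervals did not overlap in 9. For chr18_random the ratio of 3.55 stood against 2.07 on chromosome 18, and for chr10_random the ratio of 3.62 was close to the 3.52 of chromosome 10, with overlapping intervals. Leaf clusters per Mb were fewer on the random sequence in 11 of 13 pairs and EC clusters per Mb more numerous in 8.

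By size class, the random sequences exceeded every chromosome in the ratios of 24 nt and of N clusters. EC had 5.18 (4.90 to 5.49) times as many 24 nt clusters as leaf there, with 7426 against 1433, above all 19 chromosomes, of which chromosome 10 was highest at 4.43. On chrUn the 24 nt ratio was 3.25 (3.13 to 3.37), with 11342 against 3494, and on the pooled chromosomes it was 3.22. Clusters without a DicerCall were 2.49 (2.24 to 2.76) times as numerous in EC as in leaf on the random sequences, again above every chromosome, against 1.51 on chrUn and 1.47 on the chromosomes.

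The 21 nt class had the lowest ratio of the 6 classes on all 3 sets, but a higher one on chrUn than on the pooled chromosomes, where it was 0.725 (0.696 to 0.755). On chrUn, 372 clusters of 21 nt in leaf stood against 359 in EC, a ratio of 0.965 (0.832 to 1.12), above 16 of the 19 chromosomes. On the random sequences this class had 254 leaf and 171 EC clusters, giving a ratio of 0.673 (0.551 to 0.820). The covered length of the 21 nt class differed more. It was 42.9 kb in leaf and 17.3 kb in EC on the random sequences, a ratio of 0.403. On chrUn it was 41.7 and 37.6 kb, a ratio of 0.902, and the ratio was 0.567 on the pooled chromosomes. Both sets lay within the range of single chromosomes, from 0.264 on chromosome 13 to 1.31 on chromosome 2. Of the 42.9 kb, 17.9 kb lay in 20 clusters of at least 500 bp.

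The minor classes had intermediate ratios. On chrUn the ratio was 2.17 for 20 nt, 2.25 for 22 nt and 1.96 for 23 nt clusters, and on the random sequences it was 2.13, 2.84 and 2.49. Each of these lay within the range of the chromosomes. The counts were small, with 82 and 39 clusters of 20 nt and 108 and 45 of 22 nt in leaf on chrUn and on the random sequences.

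As shares of each list, several classes lay outside the range of the chromosomes. Beside the N and 24 nt classes described next, these were the 20 nt (1.17%, highest chromosome 1.13%) and 22 nt (1.60%, highest 1.52%) clusters of chrUn in EC and the 23 nt clusters of the random sequences in leaf (6.98%, highest 6.93%), all by narrow margins. In leaf, N clusters were 26.3% (25.2 to 27.4%) of the chrUn clusters, above all 19 chromosomes (22.95 to 25.8%), and 20.8% (19.2 to 22.4%) of the random ones, below all 19. In EC the N share was 15.7% (15.1 to 16.3%) on chrUn, again above all 19 chromosomes (13.3 to 15.5%), and 13.3% on the random sequences. The EC share of 24 nt clusters on chrUn, 74.7% (74.0 to 75.4%), lay below every chromosome, although chromosome 6 at 74.9% fell within its interval. The random sequences had 78.2%, and in leaf the 24 nt share was 58.4% on chrUn and 58.5% on the random sequences, both within the chromosomal range of 56.2 to 62.3%.

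Leaf clusters of 21 nt made up 10.4% (9.18 to 11.6%) of the random list against 6.22% (5.62 to 6.87%) on chrUn and 6.76% on the pooled chromosomes. Chromosome 13 alone, at 11.2%, had a larger share than the random sequences. This share rested in part on chr13_random, where 86 of the 530 leaf clusters (16.2%, 13.2 to 19.6%) were of 21 nt, and without that sequence it was 8.75%. In EC the 21 nt share was 1.80% on the random sequences and 2.36% (2.13 to 2.62%) on chrUn, the latter above 18 of the 19 chromosomes. The 24 nt clusters of the random sequences thus outnumbered those of 21 nt by 5.64 to 1 in leaf and 43.4 to 1 in EC, and those of chrUn by 9.39 and 31.6 to 1.

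**Figure D2:**
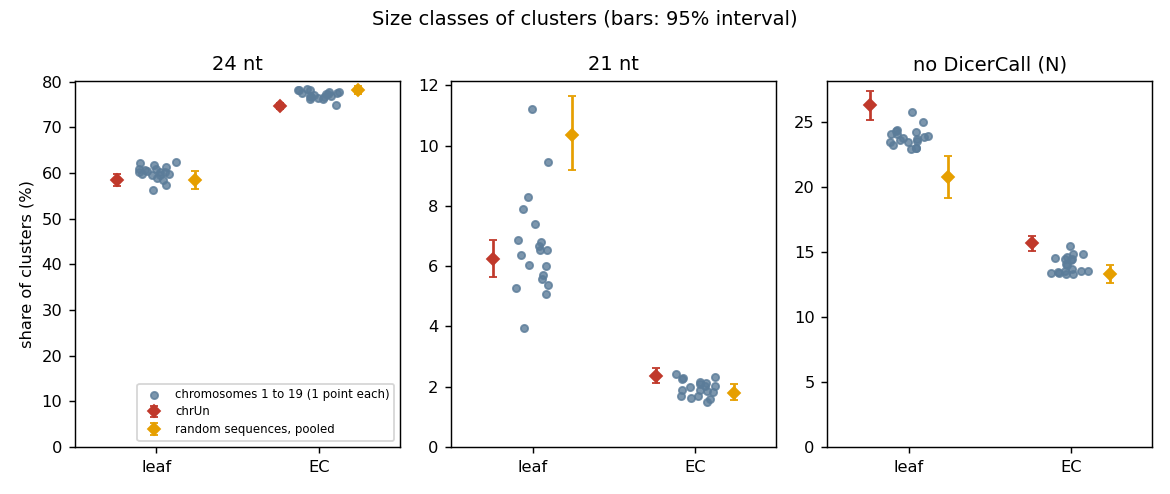
Share of all clusters (%) that were of 24 nt, of 21 nt or without a DicerCall (N) in leaf and EC, for chrUn (red), the pooled random sequences (orange) and each of chromosomes 1 to 19 (blue points), with bars for the 95% binomial interval. The N share of chrUn stands above all chromosomes in both tissues, at 26.3% and 15.7%, and the leaf 21 nt share of the random sequences, 10.4%, stands above all but chromosome 13.

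Clusters were sparse on the unplaced sequence in both tissues. Leaf had 139 clusters per Mb on chrUn and 146 on the random sequences, both below all 19 chromosomes, which ranged from 161 to 225. EC had 352 per Mb on chrUn, below all 19 chromosomes (379 to 606), but 566 on the random sequences, above all but chromosome 10. The length of a sequence was set at its last cluster end in leaf or EC, 43.2 Mb for chrUn and 16.8 Mb for the random sequences together, and runs of undetermined bases were not removed.

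The share of sequence with any cluster differed in the same direction on chrUn. Of its length, 84.7% lay in bins of 10 kb holding a cluster of either tissue, below all 19 chromosomes (89.5 to 93.6%), whereas the random sequences had 93.5%. Counted over occupied bins only, chrUn still had fewer clusters per Mb than every chromosome in leaf (164 against 177 to 249) and in EC (416 against 419 to 648), though the EC values of chrUn and the lowest chromosome were then close. Clusters covered 1.29% of chrUn in leaf and 4.14% in EC, and 1.30% and 6.30% of the random sequences, against 1.71% and 5.26% of the chromosomes. The median distance between neighbouring clusters was 2299 bp in leaf and 716 bp in EC on chrUn, and 2535 bp and 582 bp on the random sequences.

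Clusters were longer in EC than in leaf on both sets. The median length was 69 bp (quartiles 31 and 116 bp) in leaf and 93 bp (45 and 149 bp) in EC on chrUn, and 62 bp and 91 bp on the random sequences. Both leaf medians were within the range of the chromosomes (58 to 72 bp), and the EC median of chrUn equalled the highest chromosomal one, 93 bp. Very short clusters, of at most 30 bp, numbered 1435 in leaf and 2228 in EC on chrUn and 634 and 1399 on the random sequences, where they were 25.9% and 14.7% of the lists. In EC, 24 nt clusters had medians of 99 and 97 bp and 21 nt clusters of 70 and 65 bp on chrUn and on the random sequences. In leaf the order of these classes differed between the sets, with 74 bp for 24 nt and 62.5 bp for 21 nt clusters on chrUn but 65 and 78 bp on the random sequences, where the upper quartile of 21 nt clusters was 203 bp.

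A strand is given to a cluster where its reads lie mostly on 1 strand. No strand was given to 45.1% of leaf and 53.8% of EC clusters on chrUn, and to 43.2% and 54.9% on the random sequences. The EC value of the random sequences was the only one of these outside the chromosomal range, whose upper end was 54.7%, within its interval of 53.9 to 56.0%. Stranded clusters were divided about evenly, with 1619 on the plus and 1663 on the minus strand in leaf on chrUn. Among 21 nt clusters of at least 100 bp, 72.0% of 125 in leaf and 61.3% of 124 in EC had no strand on chrUn. On the random sequences the shares were 75.5% of 110 and 76.9% of 52, against 66.4% and 64.0% on the chromosomes.

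The share of leaf clusters that coincided with EC clusters lay within the range of the chromosomes (34.6 to 48.1%) on both sets. An EC cluster overlapped 43.0% (41.8 to 44.3%) of the leaf clusters of chrUn and 44.7% (42.7 to 46.7%) of those of the random sequences by at least 1 bp, against 41.1% of all leaf clusters. Seen from EC, 16.4% of the chrUn clusters were overlapped by a leaf cluster, against 16.1% of all EC clusters. On the random sequences only 11.4% (10.8 to 12.1%) were, below all 19 chromosomes (13.5 to 20.7%), with 1087 of 9500 EC clusters overlapped. The share was lower on the random sequence than on its own chromosome in 12 of 13 pairs, with chr4_random the exception.

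The overlap has to be read against the length that the other tissue covered. On chrUn the share of leaf clusters overlapped was 10.4 times the share of sequence covered in EC, and the share of EC clusters overlapped was 12.8 times that covered in leaf. Both values were above all 19 chromosomes, which reached 9.78 and 11.4. The random sequences, at 7.10 and 8.83, were within the chromosomal range. Cover was taken over the full length of each sequence, and length without any cluster raises these values. Bins of 10 kb holding a cluster made up 84.7% of chrUn, less than of any chromosome (89.5 to 93.6%). The values over occupied bins were not computed, so the rank of chrUn there is not known. The length covered in both tissues was 203 kb on chrUn, or 36.6% of the leaf and 11.4% of the EC cover, and 71.1 kb on the random sequences, or 32.7% and 6.72%.

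By class, without regard to cover, an EC cluster overlapped 44.8% (42.3 to 47.3%) of the leaf N clusters of chrUn and 42.8% (38.5 to 47.3%) of those of the random sequences, against 35.4% on the chromosomes. For leaf 21 nt clusters these shares were 31.5% (26.8 to 36.4%), 27.6% (22.2 to 33.5%) and 24.7%, and for 23 nt clusters 39.3%, 43.3% and 35.7%. For 20 nt clusters they were 30.5% (20.8 to 41.6%), 51.3% (20 of 39, 34.8 to 67.6%) and 24.4%. The 22 nt clusters differed little between the sets, at 29.6%, 31.1% and 29.5%. Leaf 24 nt clusters were overlapped in 44.6% of cases on chrUn and 48.8% on the random sequences, against 46.0% on the chromosomes. In EC, a leaf cluster overlapped 453 of the 2381 N clusters of chrUn and 114 of the 1267 of the random sequences, against 4576 of 28506 (16.1%) on the chromosomes. Where a leaf N cluster of chrUn had an EC partner, that partner was also N in 298 of 705 cases (42.3%, 38.6 to 46.0%), against 28.7% on the chromosomes and 17.0% (12.2 to 22.6%) on the random sequences, where 79.4% of such partners were 24 nt clusters.

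The 21 nt clusters shared by the tissues mostly differed in size class when seen from leaf, as they did on the chromosomes. Of 117 leaf 21 nt clusters of chrUn with an EC partner, 33 (28.2%) had a 21 nt partner and 56 a 24 nt partner. Of 70 on the random sequences 23 (32.9%) and 40 did, and of 1357 on the chromosomes 393 (29.0%) and 698. From EC the partner was more often of 21 nt, in 34 of 71 cases on chrUn (47.9%) and 27 of 39 on the random sequences (69.2%, 52.4 to 83.0%), against 49.7% on the chromosomes. Shared 24 nt clusters of leaf had a 24 nt partner in 86.7% of cases on chrUn and 87.3% on the random sequences, against 86.5% on the chromosomes.

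A small part of the N clusters of chrUn lay in dense groups. When every sequence was divided into stretches of 50 kb, a division chosen after the values were seen, 10 of the 864 stretches of chrUn held at least 20 EC clusters without a DicerCall. None of the 342 stretches of the random sequences and 1 of the 8534 on the chromosomes did. These 10 stretches held 14.1% of the EC and 8.65% of the leaf N clusters of chrUn, and the median stretch of chrUn held 2 such clusters in EC and 1 in leaf.

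The richest were 3 adjoining stretches from 17050001 to 17200000 of chrUn, with 27, 48 and 49 N clusters in EC and 2, 17 and 18 in leaf. A pair from 23650001 to 23750000 held 32 and 46 in EC and 12 and 28 in leaf, and a pair from 30750001 to 30850000 held 21 and 22 in EC and 9 and 10 in leaf. Single stretches began at 29050001, with 42 N clusters in EC and 17 in leaf, at 33150001, with 27 and 12, and at 27350001, with 22 and 11. The densest in covered length was the stretch at 29050001, of which 85 EC clusters covered 33.5%. The chromosomal stretch, on chromosome 17 from 15750001 to 15800000, held 33 N clusters in EC and 26 in leaf.

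**Figure D3:**
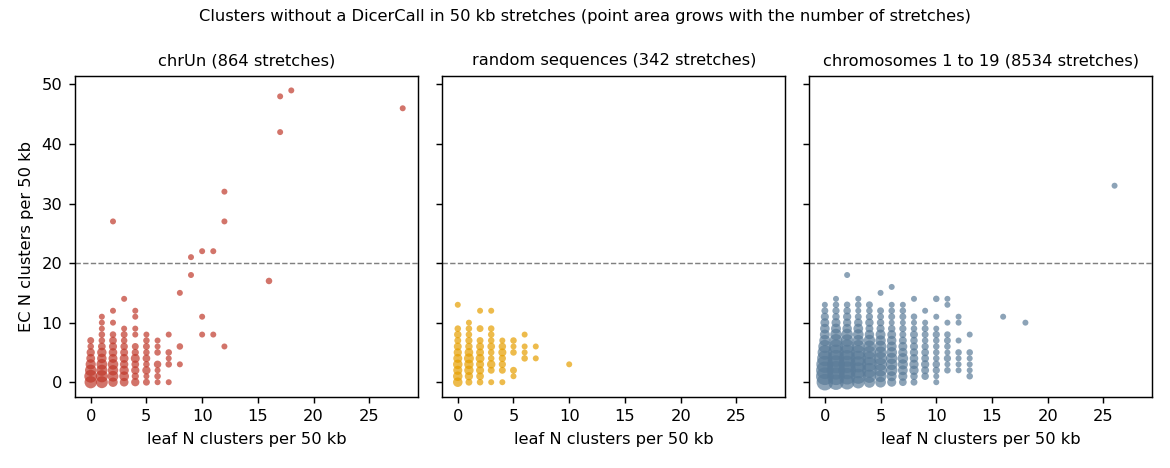
Number of clusters without a DicerCall (N) in stretches of 50 kb, leaf on the horizontal and EC on the vertical axis, for chrUn, the random sequences and chromosomes 1 to 19, with larger points for more stretches at the same pair of counts and a dashed line at 20 EC clusters. On chrUn, 10 stretches lie on or above the line, with up to 49 N clusters in EC, against none on the random sequences and 1 on the chromosomes.

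Inside these 10 stretches N rather than 24 nt clusters were the largest class. N clusters were 64.2% of the 212 leaf clusters and 51.8% of the 649 EC clusters, and 24 nt clusters 14.6% and 21.7%. EC clusters covered 99.1 kb of these stretches and overlapped 79.2% of the leaf clusters in them, and 90 of the 111 leaf N clusters with a partner had an N partner. Since many EC N clusters were the ground for choosing the stretches, these values describe the choice. Their 21 nt class had 24 leaf and 62 EC clusters, a ratio of 2.58. That ratio also comes from stretches chosen by EC clusters, so it cannot be compared with the chromosomes.

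Outside the 10 stretches the values of chrUn also follow the choice, since leaving out stretches rich in EC N clusters lowers the EC N share. N clusters were then 24.9% of leaf and 14.1% of EC clusters and 24 nt clusters 60.1% and 77.1%. The ratio of 21 nt clusters was 0.853 (0.729 to 0.999) with 348 in leaf and 297 in EC, and that of all clusters 2.52. EC clusters overlapped 41.7% of the leaf clusters. These N and 24 nt shares lay within the ranges of the chromosomes, from which no stretch was left out. The place of chrUn outside those ranges, in its N shares and its EC 24 nt share, thus depended on the 10 stretches.

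Clusters of at least 500 bp were few but differed most in makeup. On chrUn there were 58 in leaf and 185 in EC, and on the random sequences 22 and 74. In leaf, 20 of the 22 long clusters of the random sequences (90.9%, 70.8 to 98.9%) were of 21 nt, against 12 of 58 (20.7%, 11.2 to 33.4%) on chrUn and 162 of 576 (28.1%) on the chromosomes. In EC the long clusters of the random sequences were 70 of 24 nt and 4 of 21 nt.

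**Figure D4:**
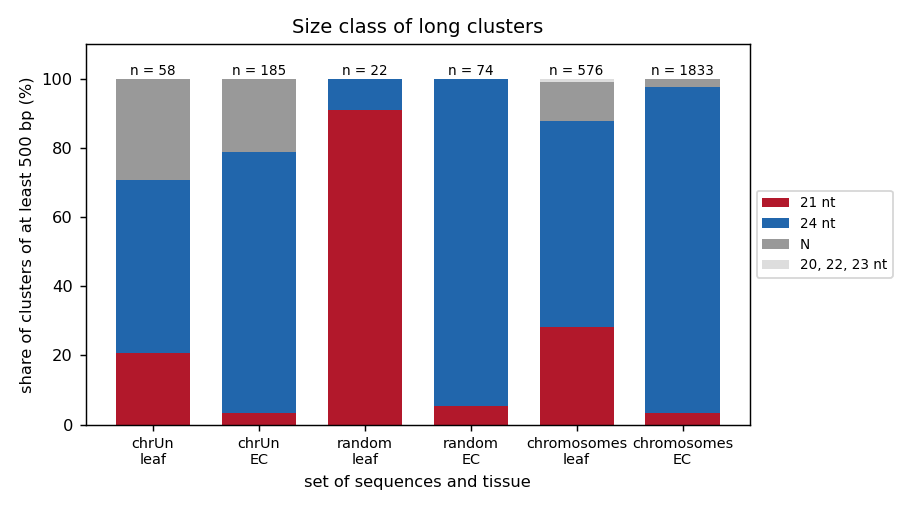
Size classes of clusters of at least 500 bp as a share (%) of such clusters in each set of sequences and tissue, with their number above each bar. Leaf clusters of the random sequences are nearly all of 21 nt (20 of 22), and N clusters make up 29.3% and 21.1% of the long clusters of chrUn in leaf and EC but 11.5% and 2.24% of those of the chromosomes.

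The 20 long leaf clusters of 21 nt lay on 4 random sequences, with 9 on chr13_random, 7 on chr18_random and 2 each on chr12_random and chr7_random. On the corresponding chromosomes 21 nt clusters were 44 of 65 long leaf clusters (chromosome 13), 9 of 53 (chromosome 18), 18 of 38 (chromosome 12) and 4 of 33 (chromosome 7). They were often neighbours, as 6 pairs, made of 12 of the clusters, lay within 2 kb of each other. No strand was given to 17 of the 20. EC clusters covered 14.2% of their length, 10 of them had no EC cluster at all and 14 were covered to less than 10%. On the chromosomes EC clusters covered 22.8% of the length of the 162 such clusters, 67 had no EC cluster and 89 were covered to less than 10%.

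The longest of them, on chr13_random (2504453 to 2506074, 1622 bp), was overlapped by 2 short EC clusters of 21 nt covering 11.1%. On the same sequence, a cluster of 1469 bp (518104 to 519572) had none in EC, and its neighbour of 1235 bp (519680 to 520914) was met only by a short EC cluster of 24 nt over 2.91%. An exception was chr12_random (469607 to 470381), where an EC cluster of 21 nt (469503 to 470249, 747 bp) lay over 83.0% of the leaf cluster. The longest EC cluster of 21 nt on the random sequences, of 971 bp on chr18_random (5031963 to 5032933), was covered to 51.0% by 2 leaf clusters of 21 nt, and the EC cluster at 3268982 to 3269664 of chr18_random had no leaf cluster.

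On chrUn, 8 of the 12 long 21 nt clusters of leaf were overlapped by an EC cluster, against 95 of 162 on the chromosomes, and 37.8% of their length was covered. Its 6 in EC were all overlapped and covered to 63.1% by leaf clusters, against 51 of 59 and 57.9% on the chromosomes. The longest in leaf (29806252 to 29808016, 1765 bp, no strand) was covered to 75.7% by 3 EC clusters, among them the second longest 21 nt cluster of EC (29806325 to 29807459, 1135 bp), which lay wholly within it. A group of long 21 nt clusters lay between about 16.2 and 16.3 Mb, with leaf clusters at 16201648 to 16202551 (904 bp, 61.2% covered in EC) and 16303787 to 16304675 (889 bp, 38.2%). Nearby, the EC cluster at 16305261 to 16306103 (843 bp) was covered to 98.3% by 1 leaf cluster of 21 nt. The longest EC cluster of this class (32409167 to 32410838) met only 4 short leaf clusters, 2 of 21 nt and 2 N.

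Long clusters without a DicerCall made up a larger share on chrUn than on the chromosomes. In EC, 39 of its 185 long clusters (21.1%, 15.4 to 27.7%) were N, against 41 of 1833 (2.24%) on the chromosomes and 0 of 74 on the random sequences, for which the interval reached 4.86%. These 39 were 48.75% of all 80 long N clusters of the EC list, and 18 of them lay in the 10 N-rich stretches. A strand was given to 30 of the 39, and 35 (89.7%) were overlapped by a leaf cluster, against 35 of 41 (85.4%) on the chromosomes. By length the order was reversed, as leaf clusters covered 43.7% of the 39 but 59.9% of the 41. In leaf, 17 of 58 long clusters of chrUn were N (29.3%) and 15 of these were overlapped by an EC cluster, against 46 of 66 on the chromosomes. EC clusters covered 65.0% of the length of the 17 and 47.0% of that of the 66.

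The longest was an EC cluster of 2770 bp on the minus strand (1135274 to 1138043). It began at the same base as a leaf N cluster of 1615 bp on that strand (1135274 to 1136888), and 4 leaf N clusters, all on the minus strand, covered 86.6% of it. An EC cluster of 2004 bp on the plus strand (34796345 to 34798348) was covered to 77.5% by 5 leaf N clusters, all on the plus strand. Another, of 1775 bp on the minus strand (27348372 to 27350146), was met by 7 leaf N clusters over 29.0%. In leaf, an N cluster (25828378 to 25829433, 1056 bp) was covered to 90.2% by 2 EC clusters, both N. By contrast the longest leaf N cluster (40926748 to 40928541, 1794 bp, no strand) had no EC cluster. No N cluster of the random sequences exceeded 497 bp, the longest being an EC cluster on chr18_random (4916504 to 4917000) over a leaf N cluster on the same strand.

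The 3 longest 24 nt clusters of EC on each set were covered in leaf to 13.1% at most. On chrUn the 3 longest of leaf were covered in EC to between 49.5% and 85.4%. EC clusters covered more of chrUn than leaf clusters did (4.14% against 1.29%). The longest 24 nt clusters of the chromosomes were not set beside these. The 3 longest in EC on chrUn, at 9023681 to 9025694 (2014 bp), 27281774 to 27283745 (1972 bp) and 16613900 to 16615486 (1587 bp), were covered in leaf to 11.3%, 1.57% and 7.31%. On chr18_random, 2 neighbouring EC clusters of 1606 bp (4087081 to 4088686) and 2010 bp (4088792 to 4090801) had no leaf cluster, and another on chr13_random (561010 to 562462, 1453 bp) was covered to 13.1%. None of these 6 had a strand. The longest leaf clusters of 24 nt on chrUn were covered more fully by EC clusters of 24 nt, to 49.5% at 7197749 to 7199598 (1850 bp, minus strand), 85.4% at 13265213 to 13266895 (1683 bp, plus strand) and 78.5% at 13263098 to 13264292 (1195 bp). Among random sequences only 2 leaf clusters of 24 nt reached 500 bp, and the longer (chr18_random, 4486596 to 4487467, 872 bp) was covered to 31.5%.

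Along chrUn the balance between the tissues varied between windows of 1 Mb. The median EC/leaf ratio of its 43 complete windows was 2.27 (quartiles 2.11 and 2.86), and the windows ran from 1.40 to 6.70. The 420 windows of the chromosomes varied more, with a median of 2.47 (quartiles 1.58 and 3.97) and a range from 0.809 to 11.25. Ratios of at least 5 were found in 3 of the 43, or 6.98%, against 13.3% of the windows of all sequences. For the random sequences the median of 11 windows was 3.98, and 3 of them reached 5. These windows came only from chr3_random, chr7_random, chr12_random, chr13_random and chr18_random, as the other random sequences are shorter than 1 Mb. Among those left out were chr16_random, chr1_random and chr17_random, which had the highest ratios. EC had more 24 nt clusters than leaf in every window of both sets, as in all 420 windows of the chromosomes. The 21 nt class was lower in EC in 21 of the 43 windows of chrUn, higher in 17 and equal in 5, against 241, 160 and 19 of the chromosomal windows.

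**Figure D5:**
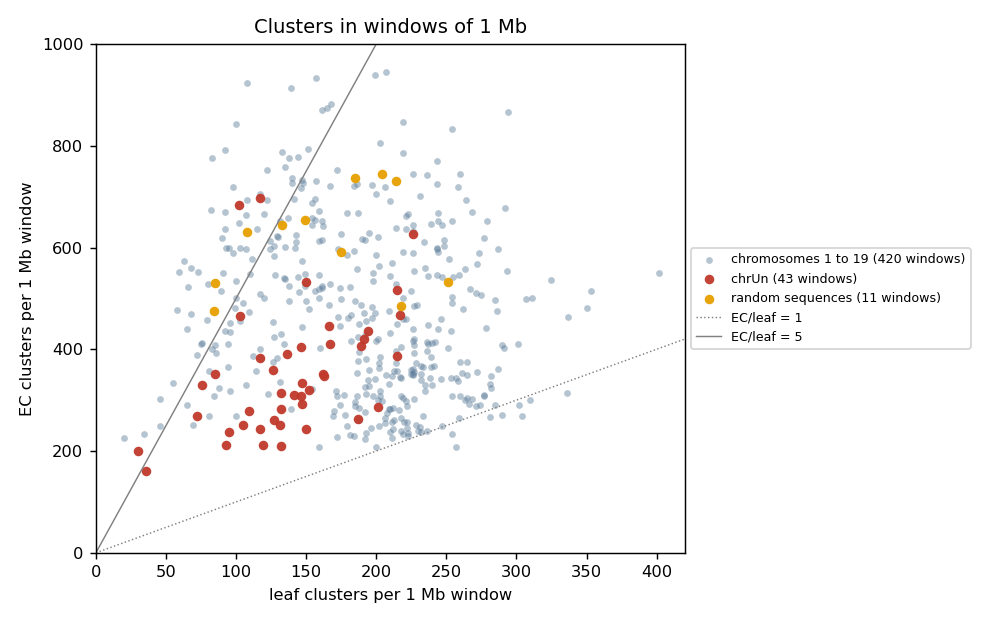
Clusters in complete windows of 1 Mb, leaf on the horizontal and EC on the vertical axis, for chrUn (red), the random sequences (orange) and chromosomes 1 to 19 (pale blue), with lines at EC/leaf ratios of 1 and 5. Most chrUn windows lie low in both tissues, around medians of 136 leaf and 329 EC clusters, and the random windows lie high in EC, with a median of 631.

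The 3 highest ratios were all near the start of chrUn. The window from 4 to 5 Mb had 30 leaf and 201 EC clusters, a ratio of 6.70 (4.55 to 10.2), that from 2 to 3 Mb had 102 and 683, also 6.70 (5.43 to 8.33), and that from 1 to 2 Mb had 117 and 697, 5.96 (4.89 to 7.31). The lowest were 1.40 (1.16 to 1.70) from 7 to 8 Mb, with 187 and 262 clusters, 1.43 from 27 to 28 Mb, with 201 and 287, and 1.58 from 31 to 32 Mb, with 132 and 209. The first 7 Mb, a limit set after the values were seen, held 563 leaf and 2803 EC clusters, a ratio of 4.98 (4.55 to 5.46), against 2.29 (2.21 to 2.36) over the rest. Leaf clusters were fewer in this stretch, with 80.4 per Mb against 150 over the rest, while EC had 400.4 against 343. When chrUn was divided into 5 equal parts, the ratio was 4.11, 2.67, 2.37, 1.99 and 2.16 from first to last.

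Clusters of 21 nt were unevenly spread along chrUn, with medians of 7 per window in leaf and 6 in EC. The window from 29 to 30 Mb held most in both tissues, 30 in leaf and 28 in EC, and that from 23 to 24 Mb held 24 and 26. The window from 5 to 6 Mb, named for its leaf clusters, held 22 against 4 EC ones (ratio 0.182, 0.0455 to 0.535). That from 17 to 18 Mb, named for its EC clusters, contains the 3 adjoining N-rich stretches. It held 10 leaf and 27 EC clusters of 21 nt (ratio 2.70, 1.27 to 6.25). Choosing a window by leaf clusters lowers its ratio, and choosing it by EC clusters raises it. These ratios thus describe the choice, and their intervals do not allow for it. Together the 3 richest windows had 20.5% of the leaf and 22.8% of the EC clusters of 21 nt in complete windows. Stretches of 50 kb with at least 8 leaf clusters of 21 nt were counted too, a limit also set after the values were seen. They numbered 4 of 864 on chrUn, 6 of 342 on the random sequences and 71 of 8534 on the chromosomes. The 6 on the random sequences held 59 of the 254 leaf clusters of 21 nt (23.2%) and 10 EC ones. Those of chrUn held 37 (9.95%) and 11, and those of the chromosomes 798 (14.6%) and 175. The excess of leaf clusters in them follows from choosing them by leaf clusters.

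ShortStack marked 0 of the 8429 leaf clusters and 3 of the 24686 EC clusters as miRNA loci, against 22 of 81168 and 12 of 203161 on the chromosomes. The authors had taken out miRNA reads ahead of mapping. On chr7_random the marked EC cluster (1346378 to 1346458, 81 bp, 21 nt, minus strand) coincided with an unmarked leaf cluster of 21 nt that began at the same base and ended at 1346455. On chrUn the cluster at 11971900 to 11972006 (21 nt, minus strand) met a leaf 21 nt cluster of the same strand at 11971899 to 11971926. The other, at 11785731 to 11785876 (146 bp, plus strand), was of 24 nt and had no leaf cluster.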

How the data were processed

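Per the labels, small RNA of 18 to 35 nt was sequenced from 1 leaf and 1 EC library. According to the study's methods, the authors trimmed and size filtered reads in the UEA small RNA Workbench, removed tRNA and rRNA reads with PatMaN and miRNA reads, mapped the rest to the PN40024 12X genome with ShortStack, which places multi-mapping reads by nearby uniquely mapping reads, and called clusters. How cluster discovery was set is not given in the sources used here, and the deposited lists hold other values than counts, namely start, end, strand, DicerCall and a miRNA mark, and 0 clusters of either list have a score. Reads per cluster, and so the depth behind each, are unknown, and cluster numbers were left uncorrected for depth. The read totals that the study states per library were not used.

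Clusters were selected by sequence name and counted with python 3.11.15, pandas 2.3.3 and numpy 2.4.6. Shares have exact binomial (Clopper-Pearson) 95% intervals from scipy 1.17.1, and intervals of EC/leaf ratios come from the binomial share of EC clusters. All cover counting error only. Overlap required 1 bp, and a partner was the cluster of longest overlap. Windows of 1 Mb and stretches of 50 kb counted clusters by midpoint. The counting was tested on simulated lists. No test between tissues or sets was made. Regions named by rule are the 3 longest 21 nt, 24 nt and N clusters per set and tissue, miRNA marks, each random sequence, and the chrUn windows with the 3 highest and lowest ratios, among those with at least 50 clusters, or most 21 nt clusters. The N-rich stretches and other regions were named after their values were seen. The sequences and rules were chosen with earlier results of these data known. Genes, repeats and sequence at the clusters were not analysed here, as no genome of this build was used.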

Additional observations from a re-analysis of the deposited data

How the results depend on the processing

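No paired analysis was possible because there was 1 library of leaf and 1 of EC, and for that reason no replicate could be left out. With clusters of at least 100 bp only, the EC/leaf ratio was 3.45 on chrUn and 5.68 on the random sequences, clusters per Mb were 47.3 and 44.5 in leaf and 163 and 253 in EC, and the median length was 139 and 138 bp in leaf and 156 and 149 bp in EC. The share of 21 nt clusters was then 14.7% in leaf on the random sequences and 1.76% and 1.22% in EC on chrUn and the random sequences, that of 24 nt clusters 64.3% in leaf on chrUn and 80.1% and 84.9% in EC, that with no strand 63.1% on both sets in leaf and 68.1% and 70.7% in EC, and that overlapped by the other tissue 40.5% and 38.8% in leaf and 11.6% and 6.85% in EC. With clusters within 500 bp merged, the ratio was 1.98 on chrUn and 2.73 on the random sequences, clusters per Mb were 103 and 113 in leaf and 204 and 308 in EC, and the overlapped share was 48.0% and 51.9% in leaf and 22.4% and 17.9% in EC. With an overlap of at least 50% of the shorter cluster, that share was 39.2% and 40.4% in leaf and 14.97% and 10.3% in EC. Over occupied bins of 10 kb, leaf had 164 and 156 clusters per Mb and EC 416 and 605. Among clusters with a DicerCall, 21 nt clusters were 8.44% and 13.1% in leaf and 2.80% on chrUn in EC, and 24 nt clusters 79.3% and 73.8% in leaf and 88.6% and 90.2% in EC. Without chr18_random, the random sequences had 139 leaf clusters per Mb and an EC 21 nt share of 1.51%, and without chr13_random a leaf 21 nt share of 8.75%, a choice made after seeing the data. Also chosen after seeing the data, chrUn without its first 7 Mb had a ratio of 2.29, and without the 10 N-rich stretches it had N shares of 24.9% in leaf and 14.1% in EC, 24 nt shares of 60.1% and 77.1%, and an overlapped share of 41.7% in leaf. In all, 58 values moved by more than their counting interval and 17 did not. The random sequences kept a ratio above all 19 chromosomes, and an EC overlapped share below all 19, with clusters of at least 100 bp (largest chromosomal ratio 5.01) and with merged clusters (2.29). With clusters of at least 100 bp, chrUn was no longer below all 19 chromosomes in clusters per Mb, being above 1 in each tissue, and its N share in leaf was above 17 of 19. Merged clusters of the random sequences in EC, at 308 per Mb, were above all 19.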

Other observations

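Long empty runs were more frequent on chrUn. Runs of at least 50 kb without a cluster of either tissue numbered 11 on chrUn, or 0.255 per Mb, 2 on the random sequences, or 0.119 per Mb, and 21 on the chromosomes, or 0.0493 per Mb. The longest, of 97.5 kb, reached from 22679274 to 22776813 of chrUn, and the next, of 88.5 kb, from 22267114 to 22355580. On the random sequences the longest, of 56.9 kb, lay on chr7_random from 894953 to 951894. Undetermined bases in these runs were not examined.

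A few clusters had the same start and end in both tissues. There were 34 on chrUn, 27 of them of the same size class and 31 of the same strand, and 13 on the random sequences, 8 of the same class. These were 0.569% and 0.530% of the leaf clusters, against 0.559% (454 clusters) on the chromosomes. Most were short, with a median length of 26.5 bp on chrUn and 24 bp on the random sequences, and the longest on chrUn measured 245 bp.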
